A study of Equus asinus with 6 samples.

Results

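Lipolysis is the stepwise removal of fatty acids from stored triglyceride, and its enzymes and direct regulators were followed here across muscle of different fat content in Guangling donkeys. The genes were chosen by name: 8 names were looked up in the gene name column of the count table, and 7 of them were found among 20873 listed genes. They were the lipases and hydrolases PNPLA2, LIPE, MGLL and ABHD6, the co-activator ABHD5, the inhibitor G0S2 and the phosphodiesterase PDE3B. PNPLA3 was not listed under that name and was not analysed here. The samples were 6 RNA libraries of longissimus dorsi, the long muscle beside the spine, from Guangling donkeys (Equus asinus) 24 months old. In 3 libraries the muscle had a high intramuscular fat (IMF) content and in 3 a low one, and no treatment or other group is named in the labels. IMF is the fat held between and inside the fibres of a muscle. The labels give neither the fat content nor the sex of the animals, and do not say that each library is a separate animal, so p-values speak only of how far these libraries scatter, which may be technical.

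In the textbook cascade, adipose triglyceride lipase (the product of PNPLA2) takes the first fatty acid from triglyceride at the surface of the lipid droplet, hormone-sensitive lipase (LIPE) acts next on diacylglycerol, and monoacylglycerol lipase (MGLL) releases the last fatty acid and glycerol. ABHD5, also known as CGI-58, activates adipose triglyceride lipase, and G0S2 inhibits it. ABHD6 is a membrane hydrolase that also acts on monoacylglycerol. PDE3B breaks down cyclic AMP in fat cells and is the enzyme through which insulin restrains lipolysis. In muscle these genes can be read out from the fibres, which hold small droplets of their own, and from fat cells lying between the fibres. In bulk tissue, fewer cells of a type and less RNA per cell cannot be told apart.

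The libraries held 39052998 to 47494157 assigned reads. Markers of skeletal muscle fibres made up 122200 to 210600 CPM (reads scaled to a common total, on library sizes adjusted by trimmed-mean normalization, TMM) over 14 genes, and PVALB was listed at 0 in high IMF replicate 1 and low IMF replicate 1. Low IMF replicates 2 and 3 were far more alike than any other pair: the chi-square statistic per gene between their counts was 7.7, where the other pairs had 118.4 to 559.6. A value of 1 would be sampling noise, so the pair is not the same reads listed again. The labels list them as separate samples and they were counted so. Whether both came from the same animal is not given in the sources used here; if they did, n = 3 overstates the low IMF group. A run with their reads summed is given in the closing section.

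The genes differed widely in level. On the FPKM scale, which divides by gene length and so allows genes to be compared, G0S2 had the highest mean over the 6 libraries (264.4 FPKM, rank 233 of all listed genes), followed by PNPLA2 (69.9) and MGLL (25.7). LIPE (5.52), ABHD5 (3.82) and ABHD6 (1.79) were lower, and the row named PDE3B was lowest (0.185). In each library G0S2 therefore stood above the enzyme it inhibits, and PNPLA2 stood above LIPE. LIPE, ABHD5 and ABHD6 lay closer together, and in high IMF replicate 3 and in low IMF replicate 1 ABHD5 was above LIPE.

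**Figure D1:**
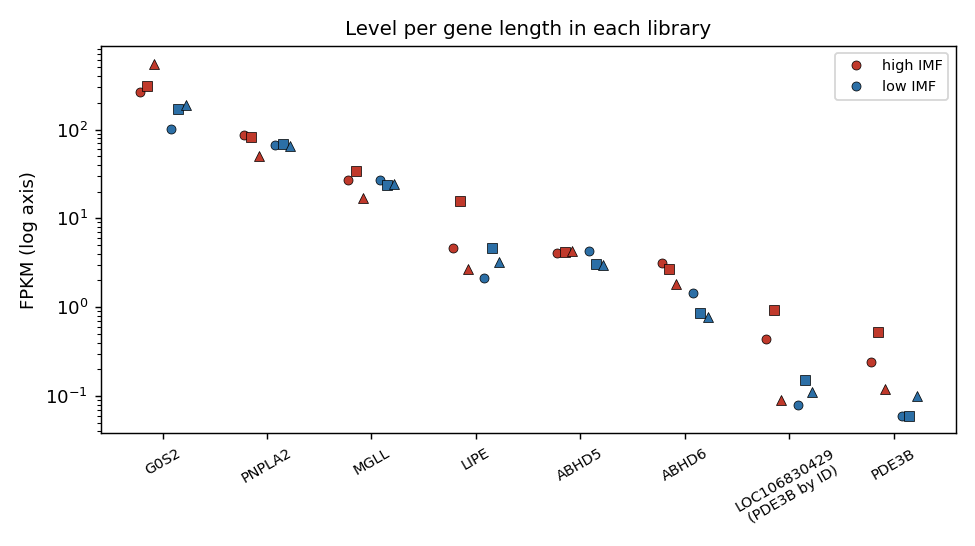
Level per gene length (FPKM, log axis) of the 7 genes and of LOC106830429, a second row for PDE3B, in each library; red points are high IMF and blue points low IMF libraries, with circles, squares and triangles for replicates 1, 2 and 3. G0S2 lies between 100.5 and 552.6 FPKM and PNPLA2 between 50.1 and 86.2, while LIPE lies between 2.13 and 15.8.

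PNPLA2, the lipase of the first step, was the steadiest of the genes. The high IMF libraries, in the order of replicates 1, 2 and 3, held 153, 149.8 and 117 CPM, and the low IMF libraries, in the same order here and below, 132, 158 and 146 CPM. The groups overlapped, and the lowest and highest values differed by 1.35-fold, a range smaller than that of all but 12.2% of 15634 tested genes with a read in every library, whose median range was 1.93-fold. The log2 fold of high over low IMF was -0.05 ± 0.18 (SE; adjusted p = 0.974, edgeR's quasi-likelihood test with Benjamini-Hochberg adjustment over all genes). Its sign is not fixed: scaled by library size only it was 0.12, a setting that shifted all genes (median log2 fold 0.01 before and 0.15 after), and it was 0.06 without high IMF replicate 3 and 0.01 without low IMF replicate 2.

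ABHD5, the co-activator of that lipase, was also even across the libraries. It measured 28.3, 30.3 and 39.2 CPM in high and 33.0, 27.1 and 26.2 CPM in low IMF muscle, with the groups overlapping. Its log2 fold was 0.18 ± 0.19 (SE; adjusted p = 0.917 in edgeR). Without high IMF replicate 3, its highest library, the log2 fold was 0.02.

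G0S2, the inhibitor, was higher on average in high IMF muscle, with no overlap between the groups. Its libraries held 185, 226 and 512 CPM on the high and 79.1, 153 and 167 CPM on the low side. High IMF replicate 3 held by far the most, low IMF replicate 1 the least, and high IMF replicate 1 was only slightly above low IMF replicate 3. The means were 308 ± 178 and 133 ± 47.1 CPM (SD, n = 3), a 2.31-fold difference (log2 fold 1.21 ± 0.45, SE), which did not pass (unadjusted p = 0.0307, adjusted p = 0.635 in edgeR). Without high IMF replicate 3 the log2 fold was 0.62. HILPDA is another protein known to inhibit adipose triglyceride lipase, taken from a list of 22 tested droplet proteins and partners. In that list 1 gene, HILPDA, had all high IMF libraries above all low ones and 2 had all below. The shares of all genes tested were 6.86% and 6.1%. HILPDA measured 10.3, 8.50 and 10.6 CPM in high and 3.15, 6.43 and 7.47 CPM in low IMF muscle. Its log2 fold was 0.79 ± 0.33 (SE) and it did not pass (unadjusted p = 0.0478, adjusted p = 0.68 in edgeR). Without low IMF replicate 1, its lowest library, the log2 fold was 0.49.

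LIPE, the hormone-sensitive lipase of the second step, was set apart in high IMF replicate 2 only. It measured 17.7, 61.8 and 13.6 CPM in high and 9.07, 22.6 and 15.2 CPM in low IMF muscle. High IMF replicate 2 was the only library above 22.6 CPM, and high IMF replicates 1 and 3 lay inside the low IMF range. The means of 31.0 ± 26.7 and 15.6 ± 6.80 CPM (SD, n = 3) gave a log2 fold of 0.99 ± 0.61 (SE; adjusted p = 0.83 in edgeR). Without high IMF replicate 2 the log2 fold was -0.01. Of 12 adipocyte markers, 9 were likewise highest in high IMF replicate 2. Low IMF replicate 1 was the lowest library for 6 of them and high IMF replicate 3 for 5, with PCK1 among the 5 by a tie at 0. FABP4 was highest in low IMF replicate 1, and PCK1 and LPL were highest in high IMF replicate 1. The adipokine ADIPOQ measured 30.3, 165 and 5.97 CPM in high and 3.02, 49.8 and 36.6 CPM in low IMF muscle. The droplet coat gene PLIN1, whose protein guards the droplet of fat cells against lipases, measured 28.6, 108 and 7.53 CPM against 1.56, 20.9 and 15.5 CPM. In LIPE, ADIPOQ and PLIN1 alike, high IMF replicate 2 was the highest and low IMF replicate 1 the lowest of the 6 libraries. The highest and lowest libraries differed by 6.82-fold for LIPE and by 69.1-fold for PLIN1. The part of fat cell content in the LIPE values was not tested.

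**Figure D2:**
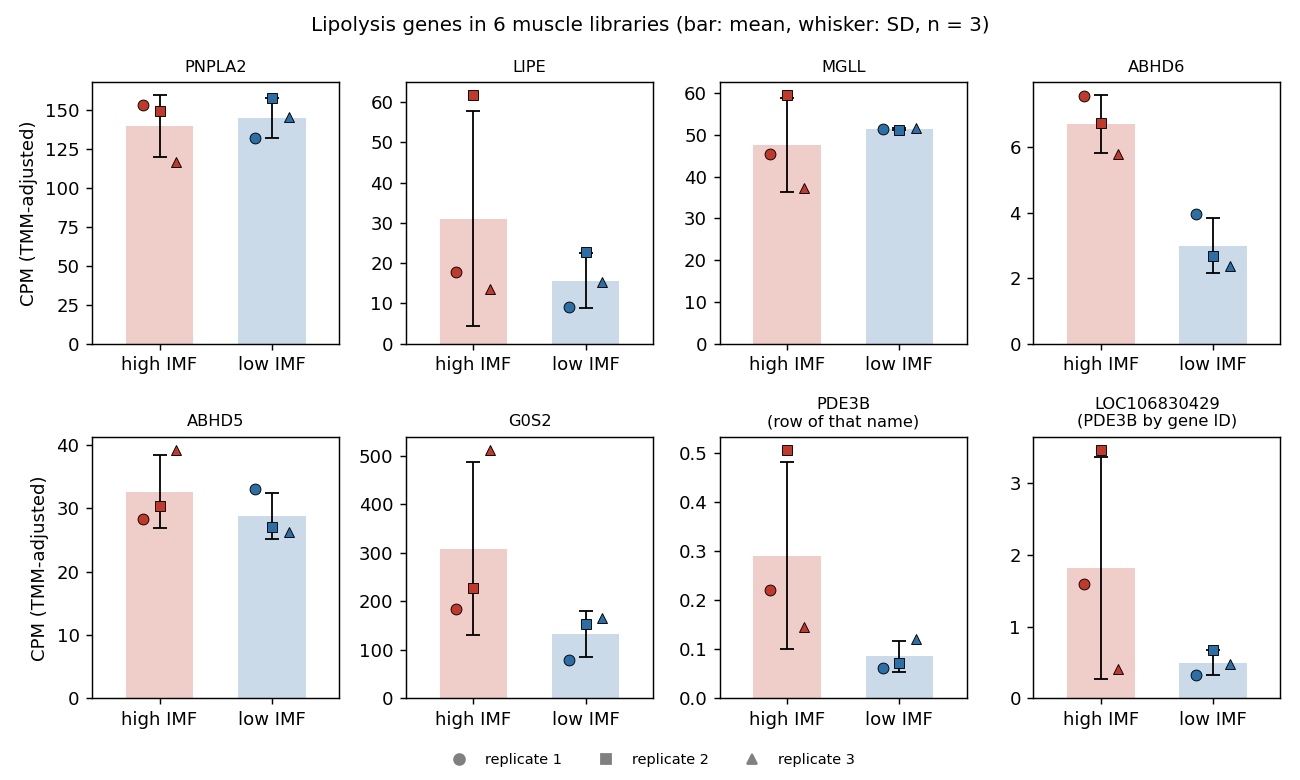
CPM of the 7 genes and of the second row for PDE3B in high IMF (red) and low IMF (blue) libraries; bars are means, whiskers SD over 3 libraries, and each marker is a library. The groups are apart for ABHD6 and G0S2, and narrowly for the row named PDE3B, whose lowest high and highest low library both had 5 reads. The 61.8 CPM of LIPE in high IMF replicate 2 stands far from its other libraries.

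Of the last step, on monoacylglycerol, 2 hydrolases were followed. MGLL measured 45.5, 59.6 and 37.4 CPM in high and 51.4, 51.3 and 51.7 CPM in low IMF muscle. The low IMF libraries lay within the spread of the high ones, and the log2 fold was -0.12 ± 0.19 (SE; adjusted p = 0.952 in edgeR). This sign too was not fixed, with 0.05 when scaled by library size only and 0.03 without high IMF replicate 3. ABHD6 measured 7.58, 6.75 and 5.79 CPM in high and 3.96, 2.67 and 2.36 CPM in low IMF muscle. The lowest high library lay above the highest low library, with means of 6.71 ± 0.893 and 2.995 ± 0.850 CPM (SD, n = 3). The difference was 2.24-fold (log2 fold 1.16 ± 0.28, SE), with the smallest unadjusted p of the genes followed here (0.00391), and it did not pass after adjustment over all genes (adjusted p = 0.51 in edgeR). Without any given library its log2 fold stayed between 1.01 and 1.40.

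PDE3B stood on 2 rows of the table. The row of that name held 10, 27 and 5 reads in high and 3, 3 and 5 reads in low IMF libraries, too few for the filter on low counts, so it had no test in edgeR. Its lowest high and highest low library both had 5 reads, and a count of 0 allows up to 3 reads, or 0.0563 to 0.0869 CPM on the scale used here. A further row, LOC106830429, carries the gene identifier that RefSeq (assembly EquAss-T2T_v2, used for names only) gives to PDE3B, and its protein description in the table is the same. It was looked up after the table had been seen. The gene lengths implied by counts and FPKM were 1076 bases for the row named PDE3B and 4145 bases for LOC106830429, and how reads were divided between the rows is not given in the sources used here, so both are uncertain. LOC106830429 measured 1.59, 3.47 and 0.406 CPM in high and 0.334, 0.679 and 0.486 CPM in low IMF muscle, with high IMF replicates 1 and 2 above all others and high IMF replicate 3 inside the low range. Its log2 fold was 1.87 ± 0.75 (SE; unadjusted p = 0.0408, adjusted p = 0.655 in edgeR), and 0.995 without high IMF replicate 2. DESeq2 did not call it on all libraries (adjusted p = 0.287) and called it with high IMF replicate 3 left out (0.0079). That run was added after the values had been seen, and it drops the high IMF library that lay inside the low range. It called 623 of 20741 genes, 396 of them higher, against 194 genes with all libraries. On both rows high IMF replicate 2 was the highest library, as it was for LIPE and for 9 of the 12 adipocyte markers, and the part of fat cell content in these values was not tested.

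Of the 7 genes, 6 passed the filter on low counts and were tested. In edgeR 0 of the 6 passed at an adjusted p under 0.05, beside 0% of the 15933 genes tested, and 0 passed in limma-voom. ABHD6 and G0S2 were the only genes of the 6 with an unadjusted p under 0.05, both with higher means in high IMF muscle, beside 4.53% of all genes higher and 2.74% lower. The same pair had all high IMF libraries above all low ones, beside 6.86% of all genes tested. The DESeq2 Wald test called 1 of the 7, ABHD6 (log2 fold 1.15 ± 0.32, SE; adjusted p = 0.0335), beside 0.68% of genes called higher by that test. The authors' deposited table gives ABHD6 an adjusted p of 0.0336 and marks it as up, beside 0.676% of its genes higher at an adjusted p under 0.05. That table marks none of the other 6 genes, and its adjusted p was 0.194 for G0S2 and 0.688 for LIPE. The DESeq2 call of ABHD6 depended on the libraries left out. It held without high IMF replicate 3 (adjusted p = 0.0173) or low IMF replicate 1 (0.000398). It was lost without high IMF replicate 1 (0.128), high IMF replicate 2 (0.186), low IMF replicate 2 (0.316) or low IMF replicate 3 (0.314). The number of genes called over the whole table moved too, from 194 with all libraries. It was 623 and 430 in the runs that kept ABHD6. In the runs that lost it, in the order above, it was 301, 131, 61 and 73.

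**Figure D3:**
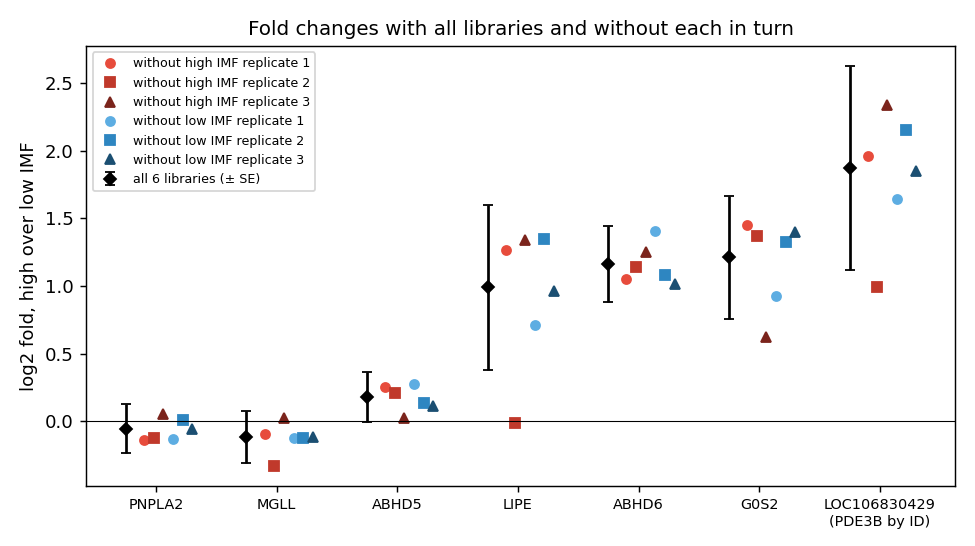
Log2 fold of high over low IMF for the 6 tested genes and LOC106830429, with all libraries (black diamond, ± SE) and without each library in turn (coloured markers). ABHD6 stays between 1.01 and 1.40, whereas LIPE falls to -0.01 without high IMF replicate 2 and G0S2 to 0.62 without high IMF replicate 3.

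Ratios between the genes inside a library do not depend on how libraries are scaled, and 6 were compared. The smallest p that 3 libraries against 3 can give in the two-sided exact permutation test is 0.1, so none could pass. G0S2 stood above PNPLA2 by 3.04, 3.81 and 11.04 times in FPKM in the high IMF libraries and by 1.51, 2.44 and 2.88 times in the low ones. The inhibitor was thus furthest ahead of its lipase in high IMF replicate 3, and the groups did not overlap, though high IMF replicate 1 and low IMF replicate 3 were close. With PNPLA2 changing little (log2 fold -0.05), this ratio largely repeats G0S2 alone (1.21). The log2 count ratio of PNPLA2 to G0S2 was lower in high IMF muscle by 1.2 units (difference -1.2, exact permutation p = 0.1, adjusted p = 0.3 over 6 ratios), and the difference was -0.63 without high IMF replicate 3. Of PNPLA2 and ABHD5, lipase and co-activator, the lipase stood higher by 21.2, 19.3 and 11.7 times in FPKM in high and 15.6, 22.8 and 21.8 times in low IMF muscle, with overlap. The size of this gap rests on gene lengths whose annotation is not given. Counts and FPKM implied 2058 bases for PNPLA2 and 8059 for ABHD5. In counts the gap was smaller, with a log2 ratio from 1.575 in high IMF replicate 3 to 2.544 in low IMF replicate 2. The log2 difference of this ratio between the groups was -0.23 (exact p = 0.5, adjusted p = 0.5) and turned to 0.03 without high IMF replicate 3.

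The ratio of ABHD6 to MGLL, the pair that acts on monoacylglycerol, also separated the groups. With MGLL changing little (log2 fold -0.12), this ratio largely repeats ABHD6 alone (1.16). In FPKM it was 0.116, 0.0785 and 0.108 on the high side and 0.0535, 0.0362 and 0.0317 on the low side. The log2 difference was 1.33 (exact permutation p = 0.1, adjusted p = 0.3), and 1.17 to 1.55 without each library in turn. LIPE to PNPLA2 was 0.0538, 0.193 and 0.0543 in high and 0.0320, 0.0670 and 0.0487 in low IMF muscle (log2 difference 0.81, exact p = 0.4, adjusted p = 0.48), and the difference was 0.20 without high IMF replicate 2. MGLL stood above LIPE by 5.82, 2.18 and 6.21 times in FPKM in high and by 12.8, 5.11 and 7.69 times in low IMF muscle, with overlap (log2 difference -0.89, exact p = 0.3, adjusted p = 0.45; -0.40 without high IMF replicate 2). PDE3B to LIPE overlapped as well, by the row of that name (log2 difference 0.76, exact p = 0.2, adjusted p = 0.4) and by LOC106830429 (0.69, exact p = 0.3). For the row named PDE3B the difference was 0.37 without low IMF replicate 2, 0.21 with a pseudocount of 5 and 0.20 from the deposited FPKM. For LOC106830429 it was 0.29 from the deposited FPKM, 0.31 when high IMF replicate 1 was left out and 1.09 when high IMF replicate 3 was.

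**Figure D4:**
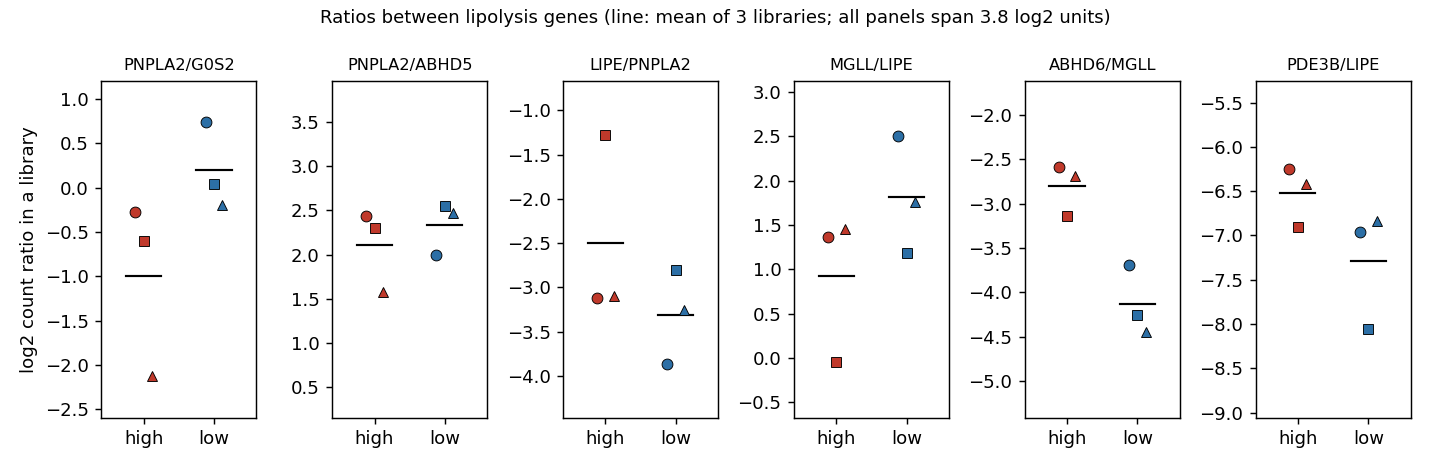
Log2 count ratio of 6 gene pairs in each library, high IMF in red and low IMF in blue, with lines at the mean of 3 libraries; the offset of a panel holds the gene lengths, so only differences within a panel are to be read. The groups are apart for PNPLA2/G0S2 and for ABHD6/MGLL, and overlap in the other panels.

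The signals that switch lipolysis on and off were examined as lists of other genes. Lipolysis in fat cells is started by adrenergic receptors through cyclic AMP and protein kinase A, and ended by phosphodiesterases and insulin. Over all genes tested, 51.1% had a positive log2 fold, with a median of 0.01, and in edgeR no gene of these lists passed. Of 24 receptors, G proteins and cyclases tested, 14 were positive (median 0.09), and an unadjusted p under 0.05 was reached by 2 on the higher and 2 on the lower side, beside 4.53% and 2.74% of all genes tested. The cyclase ADCY7 measured 14.6, 11.2 and 6.08 CPM in high against 4.11, 4.36 and 4.96 CPM in low IMF muscle (log2 fold 1.25, adjusted p = 0.522 in edgeR). The natriuretic peptide clearance receptor NPR3 measured 8.86, 5.23 and 4.37 CPM in high and 139.4, 10.4 and 11.6 CPM in low IMF muscle (log2 fold -3.13, adjusted p = 0.584 in edgeR; -0.85 without low IMF replicate 1). ADRB3, the beta-3 receptor known for lipolysis in fat cells, was listed at 0 in high IMF replicate 3 and low IMF replicate 1 and was at most 0.0973 CPM elsewhere.

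Among 14 subunits, anchors and inhibitors of protein kinase A, 9 were positive (median 0.09) and 0 reached an unadjusted p under 0.05 in either direction. The catalytic subunit PRKACB averaged 25.2 ± 6.26 CPM in high against 18.4 ± 0.655 CPM in low IMF muscle, the regulatory subunit PRKAR1A 182 ± 20.3 and 216 ± 35.4 CPM, and the inhibitor PKIB 1.21 ± 0.881 and 0.399 ± 0.269 CPM (SD, n = 3), with 2.05 CPM of PKIB in high IMF replicate 2 and a log2 fold of 1.0 in place of 1.61 without it. Among 17 phosphodiesterases other than PDE3B, 8 were positive (median -0.14), and PDE4B and PDE11A were lower at an unadjusted p under 0.05, beside 2.74% of all genes tested. PDE4B, which degrades cyclic AMP, measured 45.9, 12.8 and 20.9 CPM in high and 84.8, 63.2 and 63.7 CPM in low IMF muscle (log2 fold -1.41 ± 0.44, SE; adjusted p = 0.546 in edgeR; -2.08 without high IMF replicate 1). PDE11A measured 1.69 ± 0.618 and 3.40 ± 0.439 CPM, and PDE4A lay the other way with 68.7 ± 22.5 and 47.4 ± 3.66 CPM (SD, n = 3). Neither overlapped between the groups, as held for 6.1% of all genes tested on the lower and 6.86% on the higher side. The log2 fold of PDE4A was 0.53, and 0.23 without high IMF replicate 3.

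The insulin side had 15 genes tested, of which 7 were positive (median -0.08). FOXO1, INSR and PIK3R1 had lower means in high IMF muscle with an unadjusted p under 0.05, beside 2.74% of all genes tested. In each the high IMF libraries lay entirely below the low ones, beside 6.1% of all genes tested. EGR1 lay entirely the other way, as held for 6.86% of all genes tested. It measured 726, 391 and 513 CPM in high and 21.2, 381 and 325 CPM in low IMF muscle (log2 fold 1.16, adjusted p = 0.867 in edgeR). FOXO1, a transcription factor that insulin holds back and that is known to induce PNPLA2, measured 19.8, 24.5 and 22.9 CPM in high and 32.1, 30.0 and 30.2 CPM in low IMF muscle (log2 fold -0.46 ± 0.15, SE; adjusted p = 0.568 in edgeR). The insulin receptor INSR measured 42.4, 41.7 and 39.1 CPM against 49.4, 57.9 and 57.9 CPM (log2 fold -0.42 ± 0.14, SE; adjusted p = 0.587), and the kinase subunit PIK3R1 51.2 ± 8.32 and 72.2 ± 5.15 CPM (SD, n = 3; adjusted p = 0.59).

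Of 22 droplet proteins and lipolysis partners tested, 12 were positive (median 0.05). An unadjusted p under 0.05 was reached by CIDEA, CIDEC and HILPDA, each with the higher mean in high IMF muscle, beside 4.53% of all genes tested. CIDEA and CIDEC, droplet proteins that promote fat storage, measured 5.83, 20.4 and 2.32 CPM against 0.396, 2.55 and 1.44 CPM, and 7.53, 22.5 and 1.65 CPM against 0.563, 3.49 and 1.97 CPM. Both had their highest value in high IMF replicate 2, as LIPE did, and without it their log2 folds of 2.71 and 2.40 were 1.48 and 1.19. CIDEA was called by DESeq2 (adjusted p = 0.044) and not by edgeR (0.592). Of 15 other neutral lipid hydrolases tested, 10 were positive (median 0.09), and 0 had an unadjusted p under 0.05. The 3 of smallest p were DDHD1 (6.44 ± 1.53 CPM in high against 4.18 ± 1.10 CPM in low IMF muscle), the hydrolase ABHD4 (71.5 ± 13.6 and 94.5 ± 15.3 CPM) and PNPLA4 (4.18 ± 1.02 and 3.02 ± 0.267 CPM; SD, n = 3).

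Markers of other cells in the muscle moved between libraries too. Summed over 12 adipocyte markers, of which LEP was at 0 in low IMF replicate 1 and PCK1 at 0 in 3 libraries, the level was 259.1 to 999.8 CPM in high and 392.3 to 466.3 CPM in low IMF muscle. Most of these sums can come from LPL, FABP4 and CFD. In low IMF replicate 1 they measured 206, 129 and 117 of 466.3 CPM, where ADIPOQ measured 3.02 and PLIN1 1.56 CPM. In high IMF replicate 3 they measured 124, 34.8 and 69.7 of 259.1 CPM. On the log2 scale these markers deviated from their own means by a median of 0.53, 1.72 and -0.85 in the high libraries and of -0.99, 0.00 and -0.11 in the low libraries. High IMF replicate 3, the library with the most G0S2, had the lowest summed level of adipocyte markers and 210600 CPM of muscle fibre genes. Not every marker was low there. THRSP, a regulator of fatty acid synthesis, measured 28.0, 151 and 8.95 CPM in high and 0.146, 3.37 and 3.09 CPM in low IMF muscle. THRSP did not overlap between the groups, as held for 6.86% of all genes tested on the higher side. It did not pass (log2 fold 4.84, adjusted p = 0.523 in edgeR; 3.06 without high IMF replicate 2). LPL, which frees fatty acids from blood lipids, measured 124 CPM in high IMF replicate 3, above low IMF replicates 2 and 3. Muscle fibre genes summed to 122200, 130200 and 210600 CPM in high and 158100, 210400 and 201600 CPM in low IMF muscle. The genes of this sum did not move together. In high IMF replicate 1, 8 of the 14 were at their lowest, while TNNT1 (9220 CPM) and TNNI1 (5416 CPM) were at their highest. TNNC2 measured 4511 CPM there and 24022 CPM in high IMF replicate 3. The part of fibre content or fibre type in the G0S2 values was not tested. ABHD6 in high IMF replicate 3 (5.79 CPM) was above every low IMF library. The summed adipocyte markers were lower in high IMF replicate 3 (259.1 CPM) than in any low IMF library. Their median log2 deviation was lower in low IMF replicate 1 (-0.99) than in high IMF replicate 3 (-0.85). Fibroblast markers (8 genes) summed to 320.3 to 1422 CPM in high and 377.5 to 774.3 CPM in low IMF muscle, endothelial markers (8) to 463.5 to 876.4 and 911.2 to 1036 CPM, and macrophage markers (8) to 25.5 to 163.2 and 32.6 to 35.3 CPM. Of the fibroblast markers 8 of 8 had a positive log2 fold (median 0.93). Of the endothelial markers 1 of 8 was positive (median -0.5), and 4 had all high IMF libraries below all low ones, beside 6.1% of all genes tested. FLT1, the endothelial marker of smallest p, had a log2 fold of -1.06 (adjusted p = 0.415 in edgeR and 0.000663 in DESeq2). Of the macrophage markers 7 of 8 had a positive log2 fold (median 1.3), 7 were highest in high IMF replicate 1 and 5 were lowest in high IMF replicate 3. SPI1, a transcription factor of myeloid cells, measured 8.68, 5.87 and 3.56 CPM in high and 2.52, 2.23 and 2.09 CPM in low IMF muscle (log2 fold 1.40, adjusted p = 0.51 in edgeR and 0.0375 in DESeq2). The order of the 6 libraries was that of ABHD6, and the groups did not overlap. Of the 8 macrophage markers, 2 had all high IMF libraries above all low ones, beside 6.86% of all genes tested. SPI1 was named for having the smallest p of these markers. TYROBP, a signalling adaptor of such cells, measured 10.5, 7.54 and 4.61 CPM against 3.52, 3.81 and 3.21 CPM, also without overlap (adjusted p = 0.525 in edgeR). The groups overlapped for C1QA, with 58.9, 16.9 and 8.63 CPM against 10.9, 8.61 and 10.9 CPM. They overlapped for CD68 too, whose log2 fold was -0.10. The part of any of these cells in the lipolysis values, that of ABHD6 included, was not tested.

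**Figure D5:**
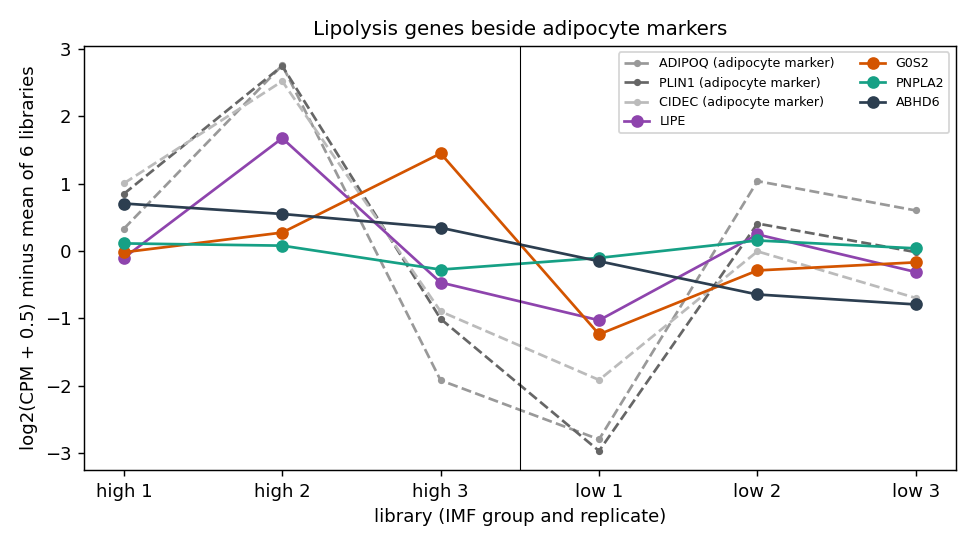
Log2(CPM + 0.5) minus the mean of the 6 libraries for LIPE, G0S2, PNPLA2 and ABHD6 (solid) and the adipocyte markers ADIPOQ, PLIN1 and CIDEC (dashed); lines join the values of a gene and libraries have no order. LIPE peaks with the markers in high IMF replicate 2, G0S2 peaks in high IMF replicate 3 where these 3 markers lie below their means, and PNPLA2 is nearly flat.

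The genes whose log2 level ran most like LIPE and PNPLA2 over the 6 libraries were searched among 12044 named genes of at least 1 CPM. For LIPE they were the bradykinin receptor BDKRB2 (Pearson r = 0.997), the alpha-2A adrenergic receptor ADRA2A (0.997) and PDGFRL (0.985). ADRA2A, known to restrain lipolysis in fat cells, measured 1.39, 7.13 and 1.13 CPM in high and 0.542, 1.94 and 1.14 CPM in low IMF muscle, with the peak in high IMF replicate 2 that LIPE has. For PNPLA2 they were REXO4 (0.994), RUNX2 (0.989) and TULP3 (0.984). Searches added after the values of G0S2 and ABHD6 had been seen gave TIGD5 (0.992), CDC42EP2 (0.992) and SAMD13 (0.989) for G0S2, and MCU (0.994), ITGB1BP2 (0.992) and GK (0.99) for ABHD6. With 6 points, a shared scaling and so many genes searched, values this near 1 are a description of these libraries only.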

How the data were processed

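The authors deposited whole-number read counts for each gene. A comparison of the single-library files with the series table found 0 cells that differed. Per the submitters' processing notes, HISAT2 and the build mm9 (a mouse build) were used, although the genes listed are those of donkey. No source used here gives the counter, annotation or strand setting, so no coordinates are printed. The deposited FPKM values are the authors' counts per gene length and library total and served for levels between genes. The fold (ratio), its log2 value and the p-values with adjusted p-values in the authors' deposited table are quoted only where it is named.

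Tests were run in edgeR 4.0.16 (R 4.3.3; quasi-likelihood, TMM normalization, filterByExpr), and 15933 genes holding 99.96% of reads were kept. Rows with an identifier only (0.704% of reads) stayed in. P-values were adjusted by Benjamini-Hochberg over all genes, threshold 0.05, and the SE was derived from the log2 fold and F. The fit was tested on simulated data. Ratios used log2 counts plus 0.5 and exact permutation. Alternatives were DESeq2 1.42.0, limma-voom (limma 3.58.1), other scalings and filters, a replicate block and each library left out.

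The genes and the lists (6 of lipolysis and pathway genes beside 5 of cell markers) were chosen with earlier results of these data known. Named are all listed members, the 3 genes of smallest p in each pathway list, a set of fat cell markers, and the 3 genes most like PNPLA2 and LIPE. Of the marker lists, summed levels, fat cell markers, some fibre genes, the endothelial marker FLT1 and the macrophage markers SPI1, TYROBP, C1QA and CD68 are printed. Not all markers that the rule names in the other marker lists are printed. ADRB3, EGR1 and the fibre genes TNNT1, TNNI1 and TNNC2 were named after their values were seen. A further gene that the rule names in the signalling list is not reported here.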

Additional observations from a re-analysis of the deposited data

How the results depend on the processing

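Of the genes followed, ABHD5, ABHD6 and G0S2 kept a positive log2 fold in all 14 alternatives, and LOC106830429 did too. No alternative put a member past the threshold except the DESeq2 Wald test, which called 1 member (ABHD6) and 194 genes in all, against 0 and 0 in edgeR. In DESeq2 runs added after seeing the data, ABHD6 was again called, as 1 member, without high IMF replicate 3 and without low IMF replicate 1, and 0 members were called in the other 4 runs, while LOC106830429 was called without high IMF replicate 3 (adjusted p = 0.0079). The run without high IMF replicate 3 called 623 genes in all and that without low IMF replicate 1 called 430. The other 4 runs called 61 to 301. In edgeR, leaving out a library in turn gave 0 to 3 genes, the 3 without high IMF replicate 1. With library size only, the log2 fold was 0.12 for PNPLA2 and 0.05 for MGLL. Over the runs without a library, the log2 fold ranged from -0.14 to 0.057 for PNPLA2 (positive without high IMF replicate 3 and low IMF replicate 2), -0.014 to 1.35 for LIPE (lowest without high IMF replicate 2), -0.33 to 0.026 for MGLL and -0.72 to 1.75 for ADIPOQ, and the log2 difference in PNPLA2/ABHD5 from -0.40 to 0.031. The cause was not tested. With low IMF replicates 2 and 3 summed, edgeR called 0 genes, and the log2 fold was 1.05 for ABHD6 and 1.36 for G0S2. Because edgeR also called 0 genes on all libraries, this count could not fall. DESeq2 was not run on the summed reads, so how its call of ABHD6 depends on that pair being separate animals was not tested. The replicate numbers share only a number: the deviations of same-numbered libraries correlated at 0.221, 0.182 and 0.034 across genes, and not every library was most like its own number. With the replicate block 0 genes were called, with log2 folds of 1.19 for ABHD6 and 1.14 for G0S2, and the ratios had an exact p of at least 0.25, the smallest that 3 pairs can give. At 53 reads over 6 libraries, the row named PDE3B was too shallow for a comparison.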
